A study of Rattus norvegicus with 325 samples.

Results

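The genes described here encode 8 transcription factors that mark positions in the embryo and the muscles formed there. They are the homeodomain factors Pitx1, Pitx3 and Lbx1 and the T-box factors Tbx1, Tbx2, Tbx3, Tbx4 and Tbx5. The members were taken by symbol from the 17315 gene symbols of the count files, and all 8 were found, each on 1 line. RNA of whole muscle was sequenced from male rats of the outbred Sprague Dawley strain, to follow how the expression of genes in skeletal muscle shifts over the adult life of the animal. The diaphragm, the muscle of breathing, and 3 muscles of the lower hindlimb (gastrocnemius, soleus and tibialis anterior) were sampled at 6, 9 and 12 months of age and again at 18, 21, 24 and 27 months. The groups differed only in muscle and age by their labels. There were 12 libraries in a group, except 11 in the 9-month diaphragm, 13 in the 21-month tibialis anterior and 10, 12, 11, 11, 9, 9 and 11 in the gastrocnemius from the youngest to the oldest age.

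Pitx1 and Tbx4 are switched on in the embryonic hindlimb and give it its identity, while the closely related Tbx5 is the factor of the forelimb and the heart. Tbx2 and Tbx3 are repressors that are used in the limb margins, the heart and the mammary gland. Tbx1 acts upstream of the muscle program in the pharyngeal arches, from which jaw and face muscles form. Lbx1 is needed by muscle precursors that migrate from the somites into the limb. Pitx3 is expressed in differentiating skeletal muscle and is best known from the lens and from dopamine neurons. The diaphragm gets its muscle fibres from migrating precursors at the level of the neck and its connective tissue from folds of the body wall. No forelimb muscle was among the muscles compared here.

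Library totals ran from 17555294 to 85316329 counts, with a median of 31879679. The muscles carried the fibre genes of their labels. The summed level of 8 slow-fibre genes reached a median in the soleus of 72011 CPM, the read count relative to the size of its library, and of 4072 CPM in the tibialis anterior, and 5 mesothelium genes summed to between 5.94 and 113 CPM in the diaphragm and to at most 2.01 CPM in any limb library. The library numbers in the labels formed 3 series, and 1 of them held all 73 gastrocnemius libraries and no other muscle. The third held 13 libraries of each other muscle. In the diaphragm and the soleus these were all 12-month libraries and a 21-month library, so the age of 12 months cannot be told apart from that numbering there. Differences between the gastrocnemius and another muscle cannot be told apart from that numbering. All tissues of an age were collected on 1 day, and the day of collection cannot be told apart from age either. The animal behind each library was not given, and p-values measure the spread between these libraries.

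Promoters are shown for Tbx4 and Tbx5, paralogs with opposite distributions over the muscles, and for the first start of Tbx1, the member whose spread lay most between muscles. The windows hold 250 bases before and 50 after a transcription start of RefSeq on rat build GRCr8, which is newer than the build behind the counts, and read in the direction of the gene. They span chr10:71228306-71228605 on the plus strand for Tbx4, chr12:42395310-42395609 on the minus strand for Tbx5 and chr11:95913360-95913659 on the plus strand for Tbx1. Capitals mark letters found on either strand of the E-box CANNTG, the motif of the myogenic factors, the T-box core GGTGTG, the Pitx core TAATCC, the Meis core TGACAG and the TATAAA box.
Tbx4: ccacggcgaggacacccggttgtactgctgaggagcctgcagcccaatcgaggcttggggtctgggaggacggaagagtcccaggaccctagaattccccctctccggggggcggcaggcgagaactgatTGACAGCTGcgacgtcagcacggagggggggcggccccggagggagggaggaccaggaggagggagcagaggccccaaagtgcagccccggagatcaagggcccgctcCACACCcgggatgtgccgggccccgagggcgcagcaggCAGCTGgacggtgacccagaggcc
Tbx5: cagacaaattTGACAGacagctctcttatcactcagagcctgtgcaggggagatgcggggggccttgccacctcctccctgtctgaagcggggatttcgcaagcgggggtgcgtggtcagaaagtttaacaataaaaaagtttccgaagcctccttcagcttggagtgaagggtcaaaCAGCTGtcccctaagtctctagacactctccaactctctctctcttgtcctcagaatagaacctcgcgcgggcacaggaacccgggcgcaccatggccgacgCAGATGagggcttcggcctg
Tbx1: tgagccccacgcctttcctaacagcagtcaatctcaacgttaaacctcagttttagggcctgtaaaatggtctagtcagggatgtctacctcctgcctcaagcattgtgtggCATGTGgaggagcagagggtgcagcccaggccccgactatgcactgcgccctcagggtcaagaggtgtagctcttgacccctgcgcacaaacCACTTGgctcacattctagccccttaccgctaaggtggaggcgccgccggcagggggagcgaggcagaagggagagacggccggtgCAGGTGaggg

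The Tbx4 window held 2 E-boxes, 1 T-box core (as its reverse complement) and 1 Meis core, which overlaps an E-box in the run TGACAGCTG. The Tbx5 window held 2 E-boxes and 1 Meis core, and the Tbx1 window 3 E-boxes. The window of a second Tbx1 start, which is not shown, held none of these motifs. Among 33465 rat promoters of the same length, an E-box was present in 72.1%, a T-box core in 17.9%, a Meis core in 19.0%, a Pitx core in 7.17% and a TATAAA box in 14.2%. The letters are a description of the windows and were not tested as binding sites. Promoter entries matched 5 of the 8 members. In the order of genes on GRCr8, no protein-coding gene lies between Tbx2 and Tbx4 on chromosome 10 or between Tbx5 and Tbx3 on chromosome 12, and 15 lie between Lbx1 and Pitx3 on chromosome 1. Tbx1 lies on chromosome 11 and Pitx1 on chromosome 17.

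The hindlimb factors were highest in the soleus. Pitx1 ran from 0.264 CPM in the lowest soleus library over a median of 1.32 to 3.86 CPM in the highest, against 0.107, 0.664 and 1.93 CPM in the gastrocnemius, 0, 0.214 and 0.659 CPM in the tibialis anterior and 0, 0.0364 and 0.408 CPM in the diaphragm. The group medians kept the order soleus, gastrocnemius, tibialis anterior and diaphragm at 7 of 7 ages, although single libraries of neighbouring muscles overlapped. Averaged over the ages, Pitx1 was 26.2-fold higher in the soleus than in the diaphragm (log2 difference 4.71, SE 0.20, adjusted p = 4.88e-70), 11.7-fold higher in the gastrocnemius (3.55, SE 0.21) and 3.41-fold higher in the tibialis anterior (1.77, SE 0.23). Levels this low make a fitted fold depend on the prior count, and the pooled counts gave a soleus to diaphragm ratio of 19.3 (95% interval 16.9 to 22.1, counting error only). Among the hindlimb muscles, the soleus exceeded the gastrocnemius by 2.24-fold and the tibialis anterior lay 7.69-fold below the soleus.

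Tbx4, the partner of Pitx1 in hindlimb identity, followed the same order at 6 of 7 ages. Its levels were 0.727, 1.51 and 3.05 CPM (lowest, median and highest library) in the soleus, 0.170, 0.520 and 1.54 CPM in the gastrocnemius, 0, 0.360 and 1.08 CPM in the tibialis anterior and 0, 0.239 and 0.836 CPM in the diaphragm. No soleus library overlapped a diaphragm library of its own age at 7 of 7 ages, although the muscles overlapped over all ages together. The share of all genes that separate age by age was not counted. Tbx4 was 7.25-fold higher in the soleus than in the diaphragm (log2 difference 2.86, SE 0.11, adjusted p = 2.42e-78), and the pooled ratio was 6.16 (95% interval 5.71 to 6.66). The gastrocnemius was 2.46-fold above the diaphragm. The tibialis anterior was 1.72-fold above it (0.78, SE 0.13), a call that was lost when libraries were scaled by their totals (0.42). The difference of the tibialis anterior from the gastrocnemius, −0.52 (SE 0.12) on the log2 scale, did not pass the 1.5-fold threshold.

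Tbx5 showed the reverse distribution. The diaphragm libraries ran from 0.117 over a median of 0.486 to 1.81 CPM, and none was at 0. In the soleus, 80 of 84 libraries were at 0 and the highest reached 0.189 CPM, while a count of 0 allows from 0.0633 to 0.171 CPM at the depth of these libraries (3 counts, counting error only). In the tibialis anterior, 51 of 85 were at 0 (highest 0.133 CPM), and the gastrocnemius ran from 0 over 0.0362 to 0.234 CPM. Over all libraries of a muscle, the diaphragm had 1668 Tbx5 reads, the gastrocnemius 122, the tibialis anterior 64 and the soleus 14. Per total count, the diaphragm was 14.2-fold above the gastrocnemius (95% interval 11.8 to 17.2), 30.9-fold above the tibialis anterior (24.1 to 40.4) and 112-fold above the soleus (66.7 to 206), where the intervals cover counting error only. In the fitted model, the log2 differences from the diaphragm were −3.37 (SE 0.15) for the gastrocnemius, −4.10 (SE 0.15) for the tibialis anterior and −4.88 (SE 0.17) for the soleus. The order among the limb muscles rests on few reads: the difference between the tibialis anterior and the gastrocnemius, −0.73 (SE 0.20), became 0.92 with a connective tissue score, the mean log2 CPM of 14 fibroblast genes, as a covariate.

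Tbx3 set the diaphragm apart from the limb muscles in every library. It ran from 48.6 over 70.7 to 84.6 CPM in the diaphragm, against 3.79, 6.86 and 11.5 CPM in the tibialis anterior, 1.39, 5.86 and 10.02 CPM in the soleus and 2.15, 4.50 and 7.63 CPM in the gastrocnemius. Every diaphragm library exceeded every limb library. Tbx3 was 15.5-fold lower in the gastrocnemius than in the diaphragm (log2 difference −3.96, SE 0.04, adjusted p = 1.27e-219), 12.1-fold lower in the soleus (−3.60, SE 0.04) and 10.2-fold lower in the tibialis anterior (−3.36, SE 0.04). The limb muscles differed less from each other. The tibialis anterior was 1.52-fold above the gastrocnemius (0.60, SE 0.05), a call that fell under the 1.5-fold threshold with size factors by relative log expression (RLE), total-count scaling, DESeq2 and the covariate, and at 2-fold. The soleus was 0.36 (SE 0.05) above the gastrocnemius on the log2 scale, which did not pass the fold threshold.

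Tbx2, the closest relative of Tbx3, varied little between muscles. Its medians were 2.64 CPM in the diaphragm, 2.56 CPM in the soleus, 2.38 CPM in the gastrocnemius and 1.79 CPM in the tibialis anterior, and libraries of all muscles overlapped. The tibialis anterior had the lowest median at 7 of 7 ages. Its difference from the diaphragm, −0.56 (SE 0.05) on the log2 scale, missed the 1.5-fold threshold in the main comparison and passed it with RLE size factors (−0.60), DESeq2 (−0.59), total-count scaling (−0.92), at 6 months only (−0.60) and without the third number series (−0.59). The other pairs that involve Tbx2 ranged from −0.47 to 0.09.

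Tbx1, known as a factor of head muscle, was highest in a hindlimb muscle. The tibialis anterior ran from 199.6 over 324 to 401 CPM, the diaphragm from 96.7 over 128 to 202 CPM, the gastrocnemius from 22.5 over 44.9 to 74.6 CPM and the soleus from 9.98 over 20.1 to 34.0 CPM. This order held at 7 of 7 ages, and the libraries of each of the 2 higher muscles lay wholly above those of each of the 2 lower ones. Tbx1 was 16.4-fold higher in the tibialis anterior than in the soleus (log2 difference 4.03, SE 0.03, adjusted p = 2.64e-250), 7.18-fold higher than in the gastrocnemius (2.84, SE 0.03) and 2.49-fold higher than in the diaphragm (1.32, SE 0.03). The soleus was 6.58-fold below the diaphragm and 2.28-fold below the gastrocnemius.

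Lbx1, the factor of migrating precursors, separated the muscles into pairs. It was high in the gastrocnemius (15.3, 33.6 and 53.2 CPM in the lowest, median and highest library) and the tibialis anterior (11.4, 26.3 and 39.9 CPM) and lower in the diaphragm (6.38, 9.43 and 17.0 CPM) and the soleus (3.92, 9.41 and 15.5 CPM). Neighbours in this order did not pass the fold threshold: the tibialis anterior differed from the gastrocnemius by −0.34 (SE 0.04), and the soleus from the diaphragm by −0.05 (SE 0.05, adjusted p = 0.290, 95% interval −0.14 to 0.04). Between the pairs, the gastrocnemius was 3.44-fold above the diaphragm (1.78, SE 0.04, adjusted p = 7.13e-129) and the soleus was 3.56-fold below the gastrocnemius (−1.83, SE 0.04). At each of the 7 ages, no gastrocnemius or tibialis anterior library overlapped a diaphragm or soleus library of that age. Over all ages together the libraries of these muscles did overlap. The share of all genes that separate age by age was not counted, so this separation cannot be called unusual.

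Pitx3 was the most even member. Its medians were 6.98 CPM in the tibialis anterior, 6.15 CPM in the gastrocnemius, 6.07 CPM in the diaphragm and 5.10 CPM in the soleus, with the tibialis anterior highest and the soleus lowest at 6 of 7 ages each. The largest difference, tibialis anterior minus soleus, was 0.46 (SE 0.05) on the log2 scale. Libraries of all muscles overlapped.

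**Figure D1:**
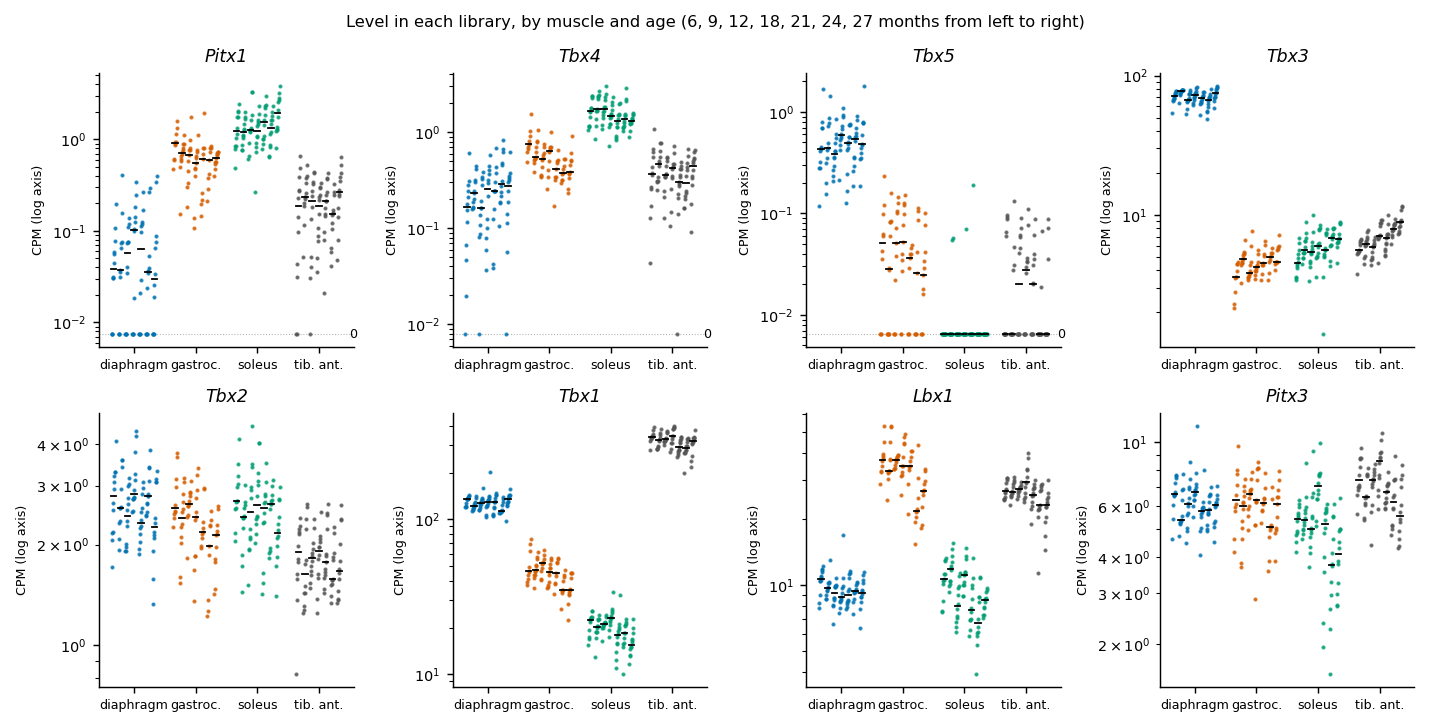
CPM of each member in each library on a log axis, by muscle and, from left to right within a muscle, by age, with a black bar at the group median and libraries at 0 on the dotted line. Diaphragm libraries of Tbx3 (48.6 to 84.6 CPM) sit above all limb libraries, soleus libraries of Tbx5 are mostly at 0, and Tbx1 is highest in the tibialis anterior.

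Across the muscle pairs, the members called at an adjusted p under 0.05 and over 1.5-fold by limma-voom numbered 6 of 8 between gastrocnemius and diaphragm, where 34.8% of all 12784 genes tested were called, and 5 of 8 between soleus and diaphragm (24.8%). They numbered 6 of 8 between tibialis anterior and diaphragm (33.3%), 5 of 8 between soleus and gastrocnemius (42.7%), 4 of 8 between tibialis anterior and gastrocnemius (14.2%) and 5 of 8 between tibialis anterior and soleus (42.0%). Pitx1 and Tbx1 were called in 6 of 6 pairs, Tbx4 in 5, and Tbx3 and Lbx1 in 4 each. At 6 months alone, Pitx1 was not called between soleus and gastrocnemius. Tbx5 was also called in 6, but it did not pass the filter on low counts within any limb muscle. Its calls between limb muscles, which the counts above include, rest on few reads and are not evidence of a difference among them. Pitx1 did not pass that filter within the diaphragm. Both genes entered the fit through the muscles where they are high, so their calls against the diaphragm are not separate support. The counts of called members and the members' median differences include both genes. Pitx3 and Tbx2 passed the fold threshold in no pair by limma-voom, although Pitx3 had an adjusted p under 0.05 in 5 of the 6 pairs and Tbx2 in 4. The median absolute difference of the members was 1.65 on the log2 scale between gastrocnemius and diaphragm, against 0.40 for all genes, and 2.79 against 0.28 between soleus and diaphragm. Scaling by total counts moved the members' differences from the diaphragm by a median of −0.32 for the gastrocnemius and −0.36 for the tibialis anterior, and those of the soleus by under 0.01.

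**Figure D2:**
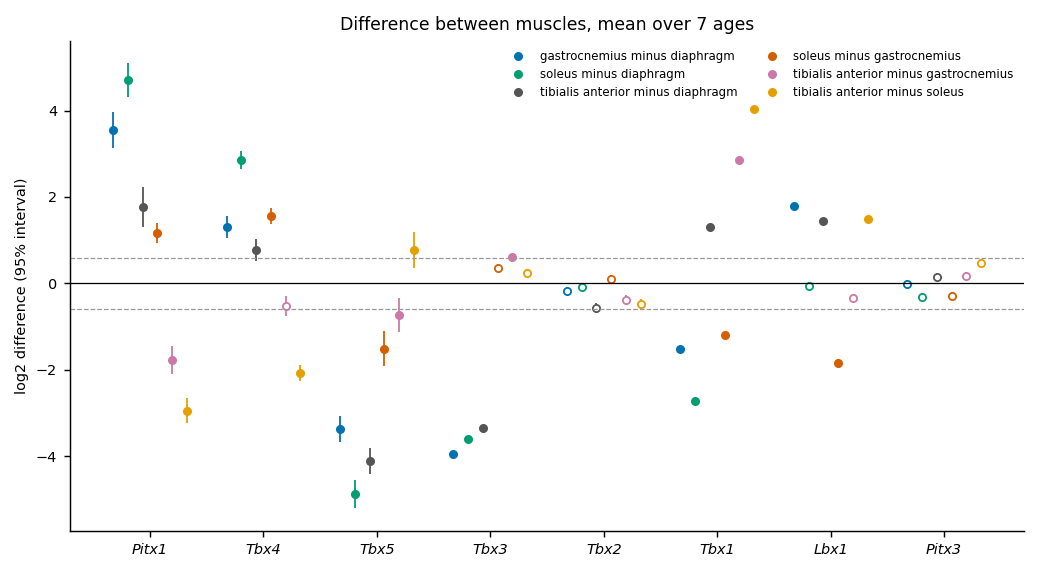
Log2 difference of each member in the 6 muscle pairs, averaged over the ages, with 95% intervals. Filled points passed the test and the 1.5-fold threshold (dashed lines), and Pitx3 and Tbx2 have open points in every pair.

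Whole muscles did not overlap for Tbx1 and Tbx3 in several pairs. Between gastrocnemius and diaphragm, and again between soleus and diaphragm, this held for 2 of the 8 members (Tbx1 and Tbx3), where 5.37% and 2.84% of all genes had no overlap. Between tibialis anterior and diaphragm it held for Tbx3 (3.93% of genes). Tbx1 also had no overlap between tibialis anterior and gastrocnemius (0.446% of genes) or soleus (5.68% of genes), and no member separated soleus from gastrocnemius (6.88% of genes).

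The spread of log2 CPM between libraries was divided into a part between muscles, a part between the ages of a muscle and a part within groups. The part between muscles was 97.4% for Tbx1, 96.1% for Tbx3, 87.4% for Lbx1, 80.2% for Tbx5, 72.3% for Pitx1, 64.3% for Tbx4, 29.2% for Tbx2 and 20.4% for Pitx3, and the median of all genes was 50.5%. The share of genes with a larger part between muscles than the member was 0.0391% for Tbx1 and 0.133% for Tbx3. For Pitx3, age took more of the spread (23.5%) than muscle, whereas age took 0.780% for Tbx1 and 1.16% for Tbx3.

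**Figure D3:**
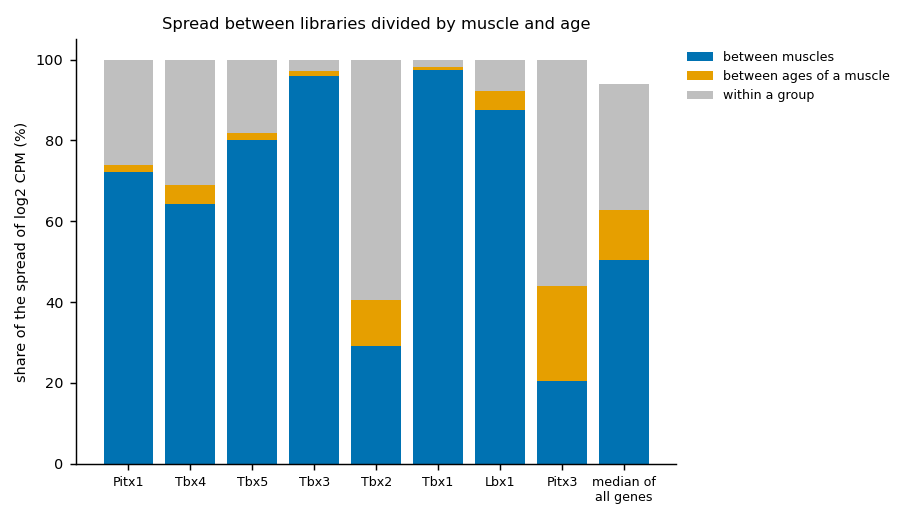
Share of the spread of log2 CPM that lies between muscles, between the ages of a muscle and within a group, for each member and as the median of all genes tested (medians need not add to 100%). The bars of Tbx1 (97.4%) and Tbx3 (96.1%) are almost wholly between muscles and that of Pitx3 (20.4%) is the lowest.

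The second question was which members changed with age. Each age was compared with 6 months within a muscle, and 7 members could be tested in each, since Pitx1 did not pass the filter on low counts in the diaphragm nor Tbx5 in the limb muscles. No member was called at 9, 12 or 18 months in any muscle by limma-voom, where from 0 to 4 of the 7 had an unadjusted p under 0.05, nor by edgeR or DESeq2. Other settings gave 3 calls there: Tbx5 in the diaphragm at 18 months with a connective tissue score as a covariate (0.85), Tbx3 in the gastrocnemius at 9 months with sample quality weights (0.60) and Tbx4 in the gastrocnemius at 12 months with the replicate block (−0.68). By limma-voom at 18 months, Pitx3 and Tbx3 in the soleus and Tbx3 in the tibialis anterior had an adjusted p under 0.05 and stayed under 1.5-fold. At 9, 12 and 18 months, 0.108%, 0.532% and 2.25% of all genes were called in the diaphragm. The gastrocnemius had 0.143%, 0.885% and 4.32%, the soleus 0.123%, 0.353% and 2.84% and the tibialis anterior 0.00851%, 0.196% and 5.45%. At 21 months no member was called in the diaphragm (1.68% of genes), the soleus (2.61%) or the tibialis anterior (6.47%), with 1, 2 and 2 members at an unadjusted p under 0.05, and at 24 months none in the soleus (6.51%) or the tibialis anterior (14.5%), with 4 in each. In the same order, 0, 1 and 2 members at 21 months and 3 and 4 at 24 months had an adjusted p under 0.05, at changes under 1.5-fold. The calls at older ages fell on Tbx3, Tbx4, Lbx1 and Pitx1.

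Tbx3 rose in the hindlimb muscles. In the tibialis anterior it went from 3.79, 5.56 and 6.70 CPM (lowest, median and highest of 12 libraries) at 6 months to 7.30, 8.89 and 11.5 CPM at 27 months. Every 27-month library exceeded every 6-month library, as was the case for 20.4% of the genes tested in either direction. No other member separated these ages in any muscle, where the shares of genes that did so were 14.0% for the gastrocnemius, 5.70% for the soleus and 2.80% for the diaphragm. The change was 1.60-fold (log2 change 0.68, SE 0.10, adjusted p = 2.33e-09), and Tbx3 was the only member called there, 1 of 7 against 27.6% of all genes. At 24 months it was 0.48 (SE 0.10, adjusted p = 1.55e-05), past the test and under 1.5-fold. It kept its call at 27 months with each of 24 libraries left out in turn (0.62 to 0.71). In the tibialis anterior and the gastrocnemius, 8 of 8 macrophage genes rose at 27 months, and their part in the level of Tbx3 was not tested.

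In the gastrocnemius, Tbx3 went from 2.15, 3.60 and 4.59 CPM at 6 months to 4.04, 4.62 and 7.20 CPM at 27 months, with overlap between the groups. The change of 0.59 (SE 0.13, adjusted p = 7.99e-05) lay just past the 1.5-fold threshold and kept its call in 13 of the 21 fits that each left out 1 library (0.53 to 0.63). The call was lost without replicates 3, 5 or 8 at 6 months and without replicates 0, 3, 5, 7 or 8 at 27 months, and with edgeR (0.57), DESeq2 (0.56), RLE size factors (0.58), no filter on low counts (0.57) and the replicate block, which fits a term for the library number of the labels (0.56). In the soleus the change was 0.58 (SE 0.15, adjusted p = 0.000566), from 3.39, 4.50 and 6.85 to 4.52, 6.69 and 8.90 CPM, and it stayed just under 1.5-fold. It passed that threshold with total-count scaling (0.73), sample quality weights (0.62) and the covariate (0.61), and in single-library omissions without replicates 0, 1, 8, 9 or 11 at 6 months or 2, 6 or 7 at 27 months. In the diaphragm, where Tbx3 was highest, it differed by 0.04 (SE 0.06, adjusted p = 0.657, 95% interval −0.08 to 0.16).

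Tbx4 fell in the gastrocnemius. It went from 0.484, 0.753 and 1.54 CPM at 6 months to 0.170, 0.411 and 0.655 CPM at 21 months, 0.298, 0.373 and 0.530 CPM at 24 months and 0.233, 0.382 and 0.920 CPM at 27 months. The older groups overlapped the youngest in their upper libraries. Against 6 months, Tbx4 was 1.94-fold lower at 21 months (log2 change −0.96, SE 0.21, adjusted p = 0.000414), 1.88-fold lower at 24 months (−0.91, SE 0.22, adjusted p = 0.000263) and 1.81-fold lower at 27 months (−0.85, SE 0.19, adjusted p = 0.000111). The call at 27 months held in 21 of 21 single-library omissions (−0.95 to −0.77). With Bonferroni adjustment the calls at all 3 ages were lost, and with total-count scaling the 27-month change was −0.59, just past the threshold. Of the 7 members tested, 1 was called at 21 months (5.81% of genes), 2 at 24 months (18.8%) and 2 at 27 months (22.8%), Tbx4 among them each time. In the same muscle at 27 months, 5 of 8 tendon genes fell and 0 rose. The soleus had 4 of 8 that fell against 1 that rose. The tibialis anterior had 4 against 2, and the diaphragm 3 against 0. Tbx4 was not called as lower in any of these other muscles. The part of tendon genes in the level of Tbx4 was not tested.

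In the diaphragm, Tbx4 was called at 24 months in the other direction. It went from 0, 0.168 and 0.610 CPM at 6 months to 0.107, 0.292 and 0.836 CPM at 24 months, with wide overlap. The log2 change was 1.31 (SE 0.45, adjusted p = 0.0427), the only call among 7 members where 2.68% of genes were called. It was lost with edgeR (1.00, adjusted p = 0.0859), DESeq2 (1.02, adjusted p = 0.0758), no filter on low counts (1.31, adjusted p = 0.0588) and the replicate block (1.25, adjusted p = 0.0624). At 27 months the diaphragm had 0 of 7 members called by limma-voom, edgeR and DESeq2 (7.52% of genes by limma-voom), with 3 members (Pitx3, Tbx2 and Lbx1) at an unadjusted p under 0.05.

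Lbx1 fell in the gastrocnemius at 24 months, from 29.0, 37.2 and 53.2 CPM at 6 months to 15.3, 21.7 and 43.4 CPM. The change was 1.58-fold down (−0.66, SE 0.13, adjusted p = 1.22e-05), and with total-count scaling it was −0.39 and lost its call. At 27 months it was −0.52 (SE 0.12, adjusted p = 0.000165), under the fold threshold. In the soleus, Lbx1 was −0.52 (SE 0.12, adjusted p = 0.000347) at 24 months and −0.30 (SE 0.11) at 27 months.

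Pitx1 rose in the soleus at 27 months, from 0.481, 1.24 and 2.42 CPM at 6 months to 0.806, 1.93 and 3.86 CPM, with most libraries in the shared range. The change was 1.52-fold (0.60, SE 0.24, adjusted p = 0.0297), 1 of 7 members, where 9.21% of genes were called as higher. It kept its call in 14 of 24 single-library omissions (0.48 to 0.70) and lost it without replicates 1, 5, 8, 9 or 11 at 6 months, without replicates 1, 6, 7, 10 or 11 at 27 months and with the replicate block (0.56, adjusted p = 0.0620). In the gastrocnemius the fitted change was −0.51 (SE 0.30, adjusted p = 0.135), and in the tibialis anterior 0.69 (SE 0.46, adjusted p = 0.172). At 27 months, 9 of 10 fast-fibre genes rose in the soleus, and their part in the level of Pitx1 was not tested.

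Tbx1, Tbx2 and Pitx3 passed no fold threshold at any age in any muscle by limma-voom. Tbx2 came close in the gastrocnemius at 24 months (−0.58, adjusted p = 0.000804), where it was called with the replicate block (−0.60) and with sample quality weights (−0.70) and was −0.31 with total-count scaling. At 27 months in the gastrocnemius, Tbx1 was −0.48 (SE 0.11, adjusted p = 0.000136) and Tbx2 −0.51 (SE 0.13, adjusted p = 0.000773). At that age in the soleus, Tbx1 was −0.40 (SE 0.11), Pitx3 −0.39 (SE 0.15) and Tbx2 −0.34 (SE 0.13), all at an adjusted p under 0.05. In the tibialis anterior, Pitx3 was −0.39 (SE 0.11, adjusted p = 0.00059) and Tbx1 −0.15 (SE 0.07, adjusted p = 0.0357). Tbx5 in the diaphragm was −0.01 (SE 0.30, adjusted p = 0.976, 95% interval −0.61 to 0.58) at 27 months, an interval whose lower end lies past a 1.5-fold fall. Scaling by total counts moved the members' 27-month changes up by a median of 0.32 for the tibialis anterior, 0.27 for the gastrocnemius, 0.15 for the soleus and 0.04 for the diaphragm. With that scaling, Tbx1 (0.17) and Lbx1 (0.03) in the tibialis anterior changed sign, Pitx3 there moved to −0.06, and Tbx3 stayed positive in all 4 muscles.

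**Figure D4:**
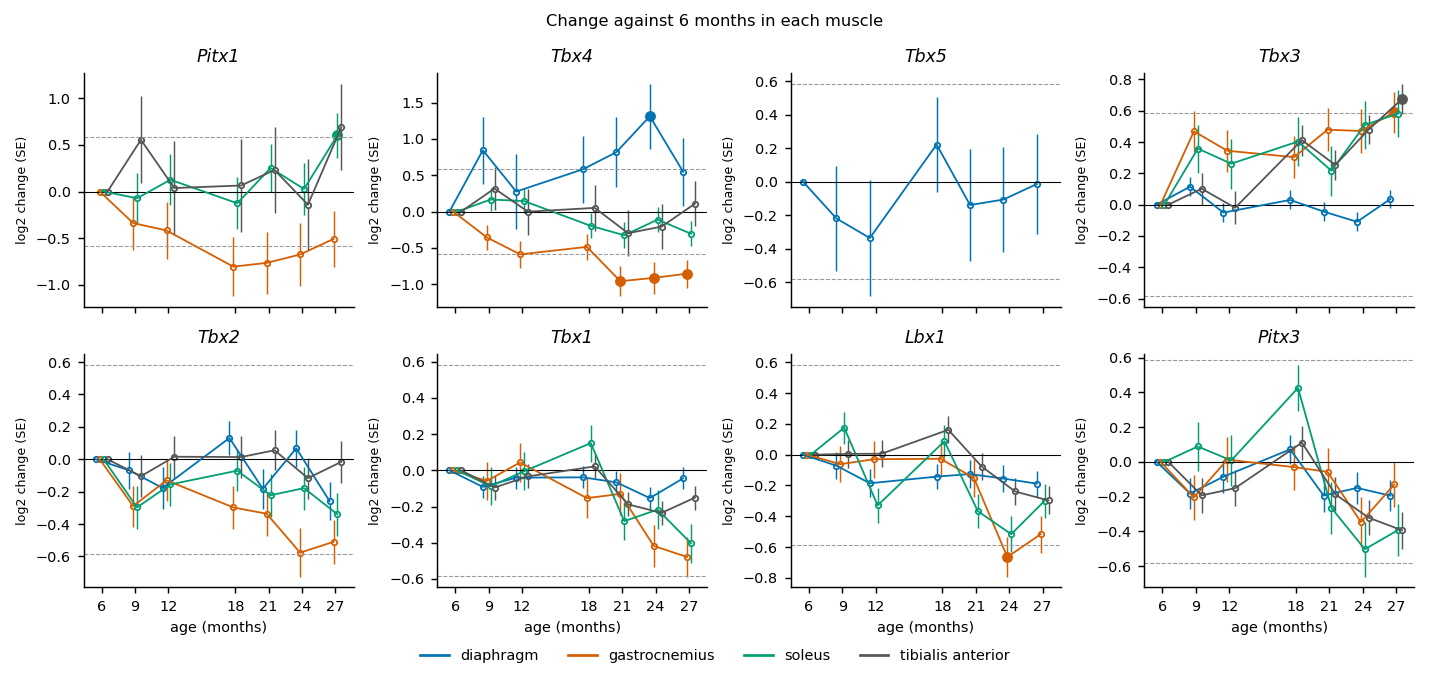
Log2 change of each member against 6 months by age (months) in each muscle, with SE bars. Filled points passed the test and the 1.5-fold threshold (dashed lines), and the tibialis anterior line of Tbx3 reaches 0.68 at 27 months while its diaphragm line ends at 0.04.

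Whether a 27-month change differed between muscles was tested directly for the 6 muscle pairs. Tbx4 changed differently in the gastrocnemius and the diaphragm, with a log2 difference of −1.44 (SE 0.48, adjusted p = 0.00694), the only member called where 21.6% of genes were. Tbx3 rose more in the tibialis anterior than in the diaphragm, by 0.59 (SE 0.13, adjusted p = 6.62e-05), the only member called where 20.3% of genes were. Its change in the gastrocnemius and the soleus exceeded that in the diaphragm by 0.51 (adjusted p = 0.00551) and 0.49 (adjusted p = 0.00234), both under 1.5-fold. Other members also passed the test under 1.5-fold. Tbx1 did so for gastrocnemius minus diaphragm (−0.49, adjusted p = 0.000379) and soleus minus diaphragm (−0.41, adjusted p = 0.00575). For tibialis anterior minus gastrocnemius, Tbx1 (0.33, adjusted p = 0.0365) and Tbx2 (0.51, adjusted p = 0.0453) did so. Lbx1 did so for gastrocnemius minus diaphragm (−0.38, adjusted p = 0.0286). Pitx1 changed differently in the soleus and the gastrocnemius, by 1.10 (SE 0.39, adjusted p = 0.0149), the only member called where 14.5% of genes were. The replicate block ended the calls of Tbx3 (0.58) and Pitx1 (0.83). The other pairs had 0 members called by limma-voom, edgeR and DESeq2, with 3 members at an unadjusted p under 0.05 between soleus and diaphragm (11.9% of genes called), 4 between tibialis anterior and gastrocnemius (7.32%) and 1 between tibialis anterior and soleus (15.8%). Of these members, 2, 2 and 0 also had an adjusted p under 0.05.

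Over all ages, a gene was given a trend when a linear or logistic course on age improved the Bayesian information criterion by over 6. The gastrocnemius had linear falls of Tbx1, Tbx2 and Tbx4, a linear rise of Tbx3 and a late fall of Lbx1 with an inflection at 21.5 months, where 55.1% of genes had a trend. The tibialis anterior had a linear rise of Tbx3 (0.03 log2 units a month), a linear fall of Tbx1 and a late fall of Lbx1 with an inflection at 21.2 months (64.9% of genes). In the soleus, Pitx3 fell with an inflection at 20.8 months, and Tbx1 and Lbx1 fell linearly (40.2% of genes). Pitx3 did not fall steadily there. Its median was 5.42 CPM at 6 months, 7.03 CPM at 18 months and 4.10 CPM at 27 months. No member had a trend in the diaphragm, where 29.6% of genes did. With total-count scaling, the trends of Tbx1 in all 3 limb muscles, of Tbx2 in the gastrocnemius and of Lbx1 in the tibialis anterior were lost, and Tbx3 gained a linear rise in the soleus.

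Markers of other cell types were set beside the levels, since in bulk muscle fewer cells of a type and less RNA per cell cannot be told apart. The mesothelium list had a median sum of 49.5 CPM for the diaphragm, 0.362 CPM for the gastrocnemius, 0.997 CPM for the soleus and 0.281 CPM for the tibialis anterior, and 2 of its 5 genes in the files, Wt1 and Bnc1, had a median of 0 in each limb muscle. The 14 fibroblast genes summed to medians of 2809, 2829, 4317 and 1672 CPM and the 8 tendon genes to 382, 876, 1389 and 230 CPM (diaphragm, gastrocnemius, soleus, tibialis anterior). Among the limb muscles, the fibroblast and the tendon sum both had the order of Pitx1 and Tbx4. With the diaphragm included they did not, since both sums were lowest in the tibialis anterior. Within muscles and ages, 63 relations between a member's log2 CPM and a list sum were computed, and 9 positive and 8 negative ones passed an adjusted permutation p under 0.05 by both Pearson's r and Spearman's rho.

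In the diaphragm, Tbx5 was higher in libraries with more connective tissue RNA. Over its 83 libraries, with the mean of each age removed, r with the fibroblast sum was 0.71 and rho 0.71 (raw permutation p = 1e-05 for both, the smallest the resamples can give, adjusted p = 0.00016 and 0.0001), and 0.67 without the 2 farthest libraries. With the tendon sum, r was 0.70 and rho 0.74 (the same raw permutation p, adjusted p = 0.00016 and 0.0001), and 0.70 without 2 libraries. With the mesothelium sum, r was 0.43 and rho 0.49 (permutation p = 9e-05 and 1e-05, adjusted p = 0.00071 and 0.0001), and 0.45 without 2 libraries. The fibroblast list had a median change of −0.38 at 27 months in the diaphragm, where 5 of its 14 genes fell, and with the connective tissue score as a covariate the 27-month change of Tbx5 was 1.44 rather than −0.01. The level of the libraries in connective tissue and the level of Tbx5 thus moved together, and the part of either in the other was not tested.

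Tbx4 had positive relations to the fibroblast and the tendon sum in the diaphragm and the tibialis anterior that passed by both measures. It went with the tendon sum in the diaphragm (r 0.50, rho 0.52, permutation p = 3e-05 and 1e-05, adjusted p = 0.00031 and 0.0001, 0.51 without 2 libraries) and in the tibialis anterior (r 0.59, rho 0.50, raw permutation p = 1e-05 for both, adjusted p = 0.00016 and 0.0001, 0.48 without 2 libraries). Its relation to the fibroblast sum in the diaphragm was weaker (r 0.28, rho 0.33, permutation p = 0.014 and 0.003, adjusted p = 0.048 and 0.012, 0.24 without 2 libraries). In the soleus its relation to the tendon sum passed by r alone (0.29, permutation p = 0.01, adjusted p = 0.039, with rho 0.22, permutation p = 0.051, adjusted p = 0.11) and rested on 2 libraries, since r was 0.15 without them. Neither relation of Tbx4 passed in the gastrocnemius. There r was 0.21 with the tendon sum (permutation p = 0.073, adjusted p = 0.16) and 0.05 with the fibroblast sum (permutation p = 0.7, adjusted p = 0.74). Tbx3 behaved otherwise. In the diaphragm its r was −0.02 with the mesothelium sum (permutation p = 0.85, adjusted p = 0.88), −0.25 with the fibroblast sum (permutation p = 0.031, adjusted p = 0.09) and −0.01 with the tendon sum (permutation p = 0.95, adjusted p = 0.95), and rho was −0.05, −0.15 and 0.02. None of its 9 relations passed by both measures. The rise of Tbx3 at 27 months was 0.60 (gastrocnemius), 0.61 (soleus) and 0.71 (tibialis anterior) with the connective tissue score as a covariate.

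Tbx1 and Lbx1 both had negative relations to the fibroblast and the tendon sum in the tibialis anterior that passed by both measures. For Tbx1, r with the fibroblast sum was −0.42 and rho −0.37 (permutation p = 0.00034 and 0.00076, adjusted p = 0.0018 and 0.0046, −0.34 without 2 libraries). For Lbx1, r with the tendon sum was −0.44 and rho −0.35 (permutation p = 3e-05 and 0.0015, adjusted p = 0.00031 and 0.0072, −0.37 without 2 libraries). Tbx1 had such a relation also to the fibroblast sum in the soleus (r −0.39, rho −0.36, permutation p = 0.00084 and 0.0013, adjusted p = 0.0035 and 0.0069, −0.32 without 2 libraries) and to the mesothelium sum in the diaphragm (r −0.33, rho −0.42, permutation p = 0.0035 and 0.00014, adjusted p = 0.014 and 0.0011, −0.28 without 2 libraries). Pitx3 had relations of both signs, with r 0.41 to the fibroblast sum in the gastrocnemius (rho 0.44, permutation p = 7e-05 and 3e-05, adjusted p = 0.00063 and 0.00027, 0.42 without 2 libraries) and −0.39 in the soleus (rho −0.38, permutation p = 0.00067 and 0.0008, adjusted p = 0.003 and 0.0046, −0.40 without 2 libraries). Tbx2 and Pitx1 had none that passed by both measures.

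**Figure D5:**
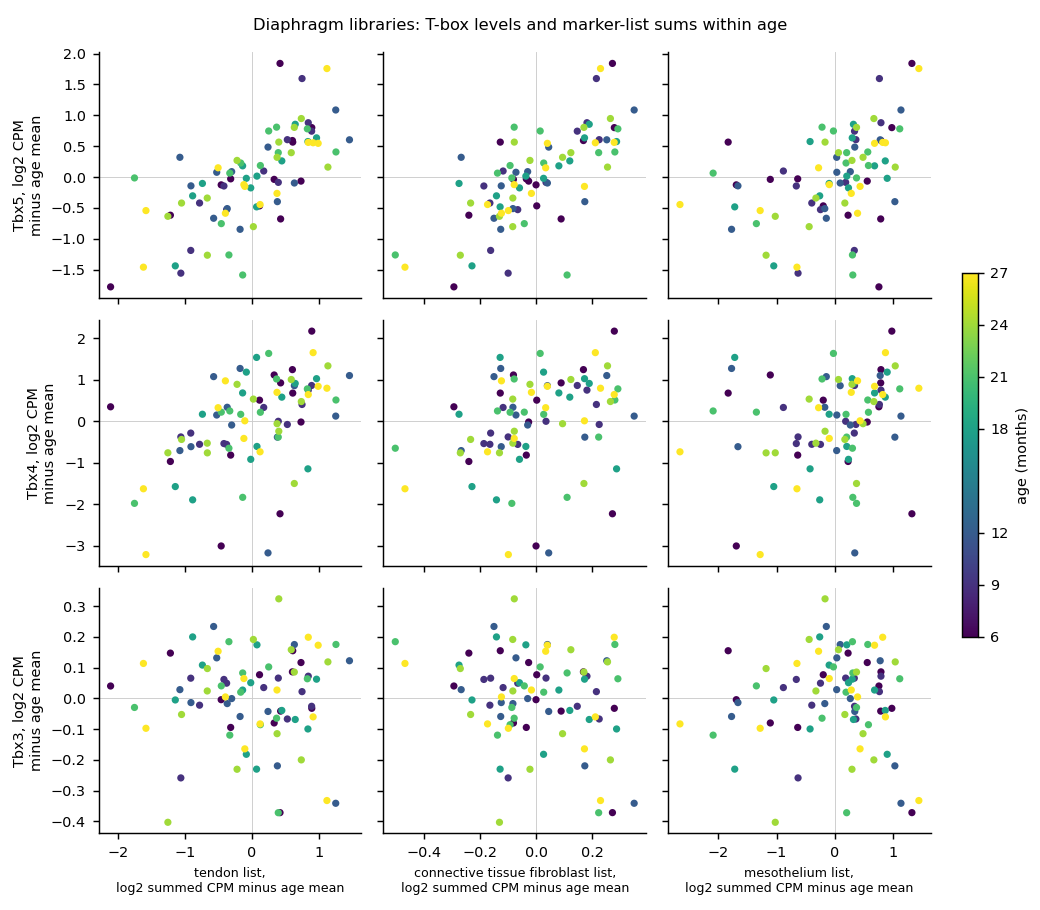
Log2 CPM of Tbx5, Tbx4 and Tbx3 (rows) against the log2 summed CPM of the tendon, fibroblast and mesothelium lists (columns) in the 83 diaphragm libraries, each minus the mean of its age and coloured by age in months. Tbx5 climbs with the tendon (r 0.70) and fibroblast (r 0.71) sums, and Tbx3 shows no such slope (r −0.01 and −0.25).

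The genes with the most similar pattern over the 28 group means, which share libraries and are given as a description, differed by member. Tbx3 was most like Bnc1 (Pearson's r 0.99), Cftr (0.98) and Wt1 (0.98), of which Bnc1 and Wt1 are mesothelium markers, and Tbx5 was most like Krt19 (0.97), Htr4 (0.97) and Pcbp3 (0.96). Pitx1 was most like Ankrd2 (0.97), a stretch-response gene of slow fibres, Mettl21c (0.96) and Hoxc4 (0.95), and Tbx4 like Hspa2 (0.95), Ppp2ca (0.94) and Srrm3 (0.94). Genes most like Tbx1 included Hsbp1 (0.96) and Extl2 (0.95), and Lbx1 was most like Tmem11 (0.99), Lsg1 (0.99) and Thap3 (0.99). The values were lower for Tbx2 (C1qtnf2 0.90, Pla2g5 0.89, Snx22 0.88) and Pitx3 (Mllt1 0.88, Ppp2r5b 0.86, Fam195a 0.86). Among the members, Pitx1 and Tbx4 reached 0.91 and Tbx3 and Tbx5 0.90, while Tbx4 and Tbx5 were at −0.76.

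Other genes of the families and of limb and muscle formation were set beside the members. Of 13 other T-box genes, 9 were in the files and 5 could be tested between muscles. Of these 5, 4 were called between soleus and diaphragm (2 higher, 2 lower, median absolute log2 difference 0.88 against 0.28 for all genes), where 24.8% of all genes were called, 3 between soleus and gastrocnemius (42.7%) and 5 between tibialis anterior and soleus (42.0%). In the pairs without the soleus, 0 of the 5 were called by limma-voom, against 34.8% of all genes for gastrocnemius and diaphragm, 33.3% for tibialis anterior and diaphragm and 14.2% for tibialis anterior and gastrocnemius. Tbx18, a gene of perivascular cells, was 3.02-fold higher in the soleus than in the gastrocnemius (1.59, SE 0.05), Tbx15, a factor of fast fibres, was 2.41-fold higher in the tibialis anterior than in the soleus (1.27, SE 0.02), and Tbx21, the T-bet gene of lymphocytes, was 2.05-fold lower in the soleus than in the diaphragm. At 27 months in the gastrocnemius, Tbx21 rose 2.55-fold (1.35, SE 0.23, adjusted p = 7.8e-07) and Tbx19 1.59-fold (0.67, SE 0.15), and 8 of 8 macrophage genes rose there too.

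Of 50 limb and axial patterning genes, 33 could be tested between muscles, and 21 were called in each comparison with the diaphragm, where 34.8% (gastrocnemius), 24.8% (soleus) and 33.3% (tibialis anterior) of all genes were. In the soleus 10 were higher and 11 lower than in the diaphragm, with a median absolute log2 difference of 0.71 against 0.28 for all genes. The calls numbered 20 between soleus and gastrocnemius (42.7% of all genes), 7 between tibialis anterior and gastrocnemius (14.2%) and 18 between tibialis anterior and soleus (42.0%). Sim1, a transcription factor also known from the hypothalamus, ran from 40.9 to 109 CPM in the soleus and from 0 to 1.28 CPM in the diaphragm (fitted log2 difference 9.60, SE 0.25). Sim2 was 25.6-fold higher in the soleus than in the diaphragm, and Meis2, a cofactor of Hox proteins, was 97.8-fold lower in the tibialis anterior than in the diaphragm (−6.61, SE 0.07). At 27 months, the patterning genes called numbered 5 of 28 tested for the tibialis anterior (27.6% of all genes), 2 of 30 for the gastrocnemius (22.8%) and 2 of 28 for the diaphragm (7.52%). In the soleus 1 of 29 was called, as higher (9.21% of all genes in that direction). In the tibialis anterior Irx3 rose 3.16-fold, Foxc2 rose 2.08-fold and Sim1 was 2.22-fold lower.

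Of 26 regulators of muscle precursors, 22 could be tested between muscles, and 11, 9 and 12 were called in gastrocnemius, soleus and tibialis anterior against the diaphragm (34.8%, 24.8% and 33.3% of all genes). In the soleus 3 were higher and 6 lower, with a median absolute log2 difference of 0.48 against 0.28 for all genes. Pax3, the factor of early muscle precursors, ran from 4.22 to 10.6 CPM in the diaphragm and from 0 over a median of 0 to 0.240 CPM in the soleus, so that its fitted log2 difference of −8.04 (SE 0.16) depends on the prior count. Six2 was 53.9-fold lower in the soleus than in the gastrocnemius, and Myod1, a myogenic factor, was 6.46-fold higher in the tibialis anterior than in the soleus. At 27 months, the gastrocnemius had 9 of 22 called (22.8% of all genes), the tibialis anterior 8 of 21 (27.6%) and the diaphragm 2 of 22 (7.52%). In the soleus 4 of 21 were called as higher (9.21% of all genes) and 2 as lower. Myog rose 13.5-fold (3.76, SE 0.23) in the tibialis anterior, Msc rose there from a median of 0.0219 to 0.346 CPM, and Myod1 rose 7.38-fold in the soleus. In each muscle, 9 of 9 genes of a denervation list rose at that age.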

How the data were processed

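The authors extracted total RNA from whole muscles kept in RNAlater, removed ribosomal RNA, made strand-specific libraries and deposited raw counts per gene for each library, which they made with ArrayStudio on a rat gene model based on RefSeq (the version is not given in the sources used here). Lines with the same symbol were summed. Levels are CPM, counts relative to library sizes that carry TMM factors, and log2 CPM used a prior count of 0.5. Tests used limma-voom (limma 3.58.1, edgeR 4.0.16, R 4.3.3) on genes passing filterByExpr (minimum count 10, minimum total 15), with Benjamini-Hochberg adjustment over all genes tested. A gene was called at an adjusted p under 0.05 and over 1.5-fold. The model was fitted within each muscle for age and over all 28 groups for muscle differences and their change with age. The fits were tested on simulated data. Alternatives included the edgeR quasi-likelihood test, DESeq2 1.42.0, other scalings and filters, a block on the library number and a covariate from connective tissue genes.

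The members and the lists were chosen with earlier results of these data known. All members were named, as were the 3 genes most like each and, of each pathway list, the 3 called genes with the largest age change and the 3 with the largest muscle difference, except for a gene among those most like Tbx1 that is not reported here.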

Additional observations from a re-analysis of the deposited data

Results flagged for a closer look

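The 27-month change differed between muscles, by a test of the difference itself, for Tbx4 between gastrocnemius and diaphragm (−1.44 on the log2 scale), for Tbx3 between tibialis anterior and diaphragm (0.59) and for Pitx1 between soleus and gastrocnemius (1.10). Over 11 alternatives, 10 kept the call of Tbx4 (−1.80 to −1.15), 8 that of Tbx3 (0.58 to 0.92) and 8 that of Pitx1 (0.83 to 1.24). A library far from the rest of its group was looked for in groups of 10 libraries or fewer, which were the gastrocnemius at 6, 21 and 24 months. None was found in the 24 combinations of these 3 groups with the 8 members, where chance marks about 1 in 20, and the other 25 groups were too large for that test.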

How the results depend on the processing

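At 27 against 6 months, the members called changed as follows. In the gastrocnemius, 2 became 1 with edgeR, DESeq2, RLE size factors, no low-count filter or the replicate block, 0 with Bonferroni adjustment or a 2-fold threshold, and 1 to 2 with single libraries left out. In the soleus, 1 became 2 with total-count scaling, sample quality weights or the connective tissue covariate, 0 with the replicate block, Bonferroni or 2-fold, and 0 to 2 with single libraries left out. In the tibialis anterior, 1 became 2 with total-count scaling and 0 at 2-fold, and in the diaphragm 0 became 1 with the covariate. Over the 6 ages, the single diaphragm call became 0 with edgeR, DESeq2, no filter, the block or Bonferroni and 5 with the covariate. The 5 gastrocnemius calls became 8 with quality weights, 1 with Bonferroni and 0 at 2-fold, the soleus changed as at 27 months, and the tibialis anterior call became 3 with total-count scaling, 2 without the filter and 0 at 2-fold. Between tibialis anterior and gastrocnemius, 4 members became 2 at 2-fold. For differences in the 27-month change, gastrocnemius minus diaphragm went from 1 to 2 with total-count scaling, quality weights, the covariate or DESeq2 and to 0 with Bonferroni. Soleus minus diaphragm went from 0 to 1 with total-count scaling or the covariate, tibialis anterior minus diaphragm from 1 to 2 with the covariate and to 0 with the block, Bonferroni or 2-fold, and soleus minus gastrocnemius from 1 to 0 without the filter, with the block or with Bonferroni. The cause of these shifts was not tested.

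A called difference changed sign and stayed called in 1 case, Tbx5 for tibialis anterior minus gastrocnemius, which went from −0.73 to 0.92 with the covariate. The other changes of sign were not called in both fits. For the 27-month change of Tbx5 in the diaphragm (−0.01), they were 0.065 with edgeR, 0.099 with DESeq2, 0.018 with total-count scaling, 0.015 without the filter, 0.20 with quality weights, 0.086 with the block, 1.44 with the covariate and 0.0018 without the third number series. Tbx4 in the tibialis anterior (0.11) went to −0.026 with edgeR, −0.018 with DESeq2, −0.017 with quality weights and −0.55 with the covariate. Total-count scaling gave 0.14 for Pitx3 in the gastrocnemius and 0.17, 0.30 and 0.034 for Tbx1, Tbx2 and Lbx1 in the tibialis anterior, where the block gave 0.0075 for Tbx2, and the covariate gave −0.079 for Tbx3 in the diaphragm. With single libraries left out, Tbx5 in the diaphragm ran from −0.15 to 0.21, Tbx2 in the tibialis anterior from −0.10 to 0.032 and Tbx4 there from −0.067 to 0.33. Between muscles, Pitx3 changed sign for gastrocnemius minus diaphragm (block 0.0067, 27 months only 0.010), tibialis anterior minus diaphragm (total-count scaling −0.20, covariate −0.029, 27 months only −0.029), soleus minus gastrocnemius (total-count scaling 0.023) and tibialis anterior minus gastrocnemius (27 months only −0.040). Tbx2 did so at 6 months only for gastrocnemius minus diaphragm (0.068), soleus minus diaphragm (0.030) and soleus minus gastrocnemius (−0.038, and −0.0068 with the covariate), and Lbx1 for soleus minus diaphragm (covariate 0.0056, 6 months only 0.014). For tibialis anterior minus gastrocnemius, the covariate gave 0.12 for Tbx4 (−0.52 in the main comparison), and for tibialis anterior minus soleus total-count scaling gave −0.11 for Tbx3. Of 624 muscle differences under other settings, 580 kept direction and call.

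Same-numbered libraries of an age correlated across muscles with a median r of 0.03 to 0.20, against −0.03 to −0.01 for other numbers. This did not hold in every pair of libraries (59 of 84 over 0.1 for tibialis anterior and soleus). For 43 of those 84 the best match had the same number. Whether same-numbered libraries come from the same animal was not given, and the main tests between muscles treated them as independent. The block changed the counts given above. Pitx1, Tbx4 and Tbx5 rest on few reads, which limits what could be detected for them.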
